A study of Arabidopsis thaliana with 18 samples.

Results

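The effect of losing *BDR1* was set against that of losing its paralogs *BDR2* and *BDR3* in 8-day-old *Arabidopsis thaliana* seedlings. The comparison used 9 of the 18 mRNA-seq libraries of the series, 3 each of the insertion mutants *bdr1*, *bdr2* and *bdr3*, and set the *bdr1* group against the mean of the *bdr2* and *bdr3* groups over all genes, to ask whether *BDR1* has effects that its paralogs lack. The other 9 libraries were the triple mutant *bdrs*, which carries mutations in all of these genes, the *fpa* mutant and wild-type Col-0 (WT), and they served as side values. All plants were Col-0 or mutants in that background, stratified in darkness (4 days, 4 °C) and then grown on plates at 21 °C under a cycle of 16 h light and 8 h darkness. Each mutant line is a lone insertion allele (SALK_142108C for *bdr1*, CS852350 for *bdr2* and SALK_059905 for *bdr3* in the labels, while the study's methods add a C to the last and give the *bdr2* line another name), so the effect of a gene and that of anything else carried by its line cannot be told apart. Whole seedlings were sampled, so fewer cells of a type and less RNA per cell cannot be told apart either.

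BORDER (BDR) proteins are nuclear plant proteins that combine a SPOC domain, found in transcriptional repressors, with a region related to the middle part of TFIIS, an elongation factor that contacts RNA polymerase II. Transcription that fails to stop at the end of a gene can run into the promoter of the next gene on the same strand and lower its expression. FPA is another SPOC protein, which binds RNA, promotes the choice of upstream RNA 3′ ends and represses *FLC*, the MADS-box repressor of flowering.

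The 9 libraries held 13209584 to 21084793 counted reads. The share of counts on nuclear and organellar ribosomal RNA was 1.17% in *bdr1* 3 and 0.0998% to 0.847% in the other 8, and light-harvesting and photosystem genes took 9.55% to 16.7%. The TMM scaling factor was 1.13 in *bdr1* 1, while *bdr1* 2 and 3 had 0.872 and 0.882, so *bdr1* 1 stood apart from the other libraries of its line. The factor of *bdr3* 1 was also 1.13, and those of *bdr1* 2 and 3 were the lowest of the 9. Whether replicate libraries came from separate growth batches is not stated, so the p-values measure the spread between these libraries, which may be technical.

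The mutated genes were examined first. *BDR1* (AT5G25520, chromosome 5, 8885088 to 8889904, TAIR10.1) was measured at 7.17, 6.85 and 7.81 CPM (counts scaled to the library size after TMM normalisation) in *bdr1*, against 29.9, 25.1 and 29.3 CPM in *bdr2* and 35.1, 24.8 and 28.4 CPM in *bdr3*. The *bdr1* libraries were 3.96-fold lower than the mean of the paralog lines (log2 difference −1.99 ± 0.16 SE, edgeR adjusted p = 1.41e-06). *BDR2* (AT5G11430, chromosome 5, 3647862 to 3652477) had 17.603, 18.4 and 17.9 CPM in *bdr1*, 5.61, 6.35 and 7.87 CPM in *bdr2*, and 18.8, 15.5 and 15.4 CPM in *bdr3*. It was called higher in *bdr1* than in the mean of the paralog lines (0.78 ± 0.12, edgeR adjusted p = 0.00424), and only the *bdr2* libraries were low, while the *bdr1* and *bdr3* libraries overlapped (0.12, edgeR adjusted p = 0.711). *BDR3* (AT2G25640, chromosome 2, 10910461 to 10914547) had 8.75, 7.45 and 7.55 CPM in *bdr1*, 10.7, 7.05 and 8.42 CPM in *bdr2*, and 8.02, 5.19 and 6.17 CPM in *bdr3*. Its libraries overlapped in all lines (0.08, edgeR adjusted p = 0.842), so counts over the whole gene do not check the label of *bdr3*. The related elongation factor *TFIIS* (AT2G38560) did not pass the test, with means of 17.0 CPM in *bdr1*, 18.6 CPM in *bdr2* and 17.9 CPM in *bdr3*.

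**Figure D1:**
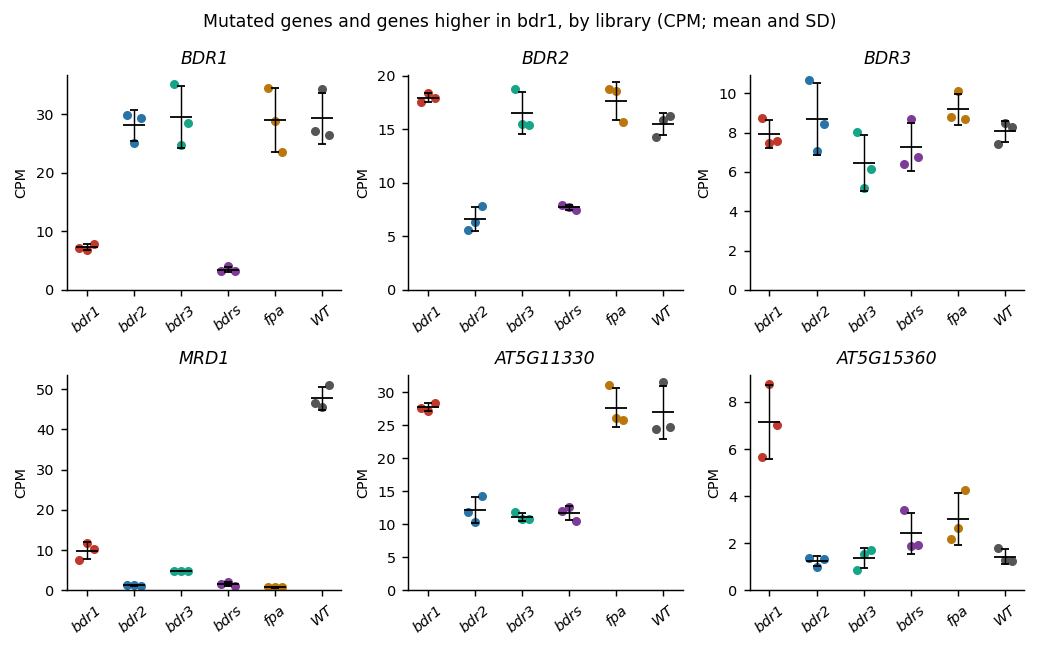
Levels (CPM, y axis) of the mutated genes and of the other genes called higher in *bdr1*, with a point per library, the mean as a bar and the SD as whiskers for *bdr1*, *bdr2*, *bdr3*, *bdrs*, *fpa* and WT. *BDR1* is low in *bdr1* (mean 7.28 CPM) and *bdrs*, *AT5G11330* is low in *bdr2*, *bdr3* and *bdrs*, and *AT5G15360* is high in *bdr1* alone among the single mutants.

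Among the genes called in the fit of all libraries, *bdr1* differed from the mean of *bdr2* and *bdr3* mainly by lower transcripts. At an unadjusted p under 0.05, more genes were higher (1513) than lower (1202). Of 20143 tested genes, 50 were lower (0.248% of those tested) and 4 were higher (0.0199%) in *bdr1* at an edgeR adjusted p under 0.05. The 50 lower genes include *BDR1* itself and the 4 higher genes include *BDR2*, both of which the mutations chose. The log2 differences of the lower genes ran from −1.99 to −0.62 with a median of −1.23, and 42 of them were lower by over 2-fold. In 49 of the lower and 3 of the higher genes all *bdr1* libraries lay on the outer side of all 6 paralog libraries, against 495 of all tested genes below (2.46%) and 417 above (2.07%). The number of calls turned on single libraries. Without *bdr1* 1 there were 181 lower and 288 higher genes, without *bdr1* 2 there were 12 and 3, and without *bdr1* 3 there were 13 and 4. Leaving out *bdr2* 1, *bdr2* 3 or *bdr3* 2 gave 26, 31 or 27 lower genes, and leaving out *bdr2* 2 gave 73 lower and 10 higher genes. All 50 lower genes kept a difference below 0 in each of these fits, and 12 of them kept their call in all 9. For the 49 whose *bdr1* libraries lay below all paralog libraries, leaving out a library could not reverse the sign.

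**Figure D2:**
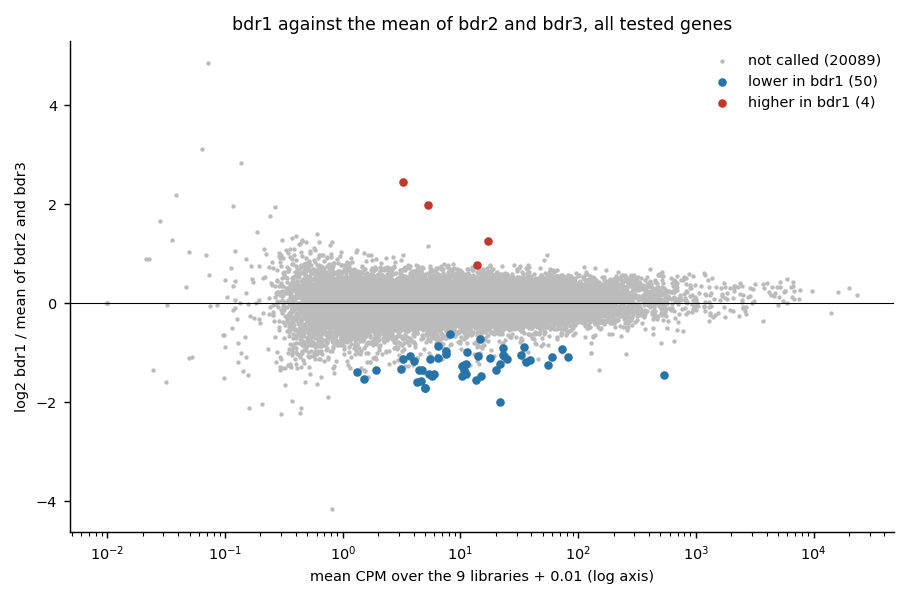
Log2 difference between *bdr1* and the mean of *bdr2* and *bdr3* (y axis) against the mean level over the 9 libraries (CPM + 0.01, log axis) for 20143 tested genes. The 50 genes called lower (blue) outnumber the 4 called higher (red), and most tested genes lie near 0.

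Against each paralog line alone the picture was the same in kind. Set against *bdr2*, 24 genes were lower (0.119%) and 4 were higher (0.0199%) in *bdr1*, and set against *bdr3*, 45 were lower (0.223%) and 6 were higher (0.0298%). Both comparisons use the same *bdr1* libraries. They called 17 genes lower (0.0844%) and 3 genes higher (0.0149%) in *bdr1* in both. The paralog lines differed from each other in 3 genes, *MRD1* and *BDR2*, lower in *bdr2* (0.00993%), and AT5G28870, higher in *bdr2* (0.00496%), and none of the 50 lower genes was among them (edgeR and DESeq2, 6 of the 50 lower in *bdr2* at an unadjusted p under 0.05). The call of AT5G28870 was lost in every fit that left out a *bdr2* or *bdr3* library. Against WT the 3 single mutants had few calls: 4 lower (0.0199%) and 1 higher (0.00496%) in *bdr1*, 7 lower (0.0348%) and 1 higher (0.00496%) in *bdr2*, and 4 lower (0.0199%) in *bdr3*. Of the 50 lower genes, *BDR1* and AT4G36600 were also called lower in *bdr1* than in WT. In 45 of the 50 the WT mean lay between that of *bdr1* and those of both paralogs. Their median log2 difference from WT was −0.88 in *bdr1*, 0.28 in *bdr2* and 0.41 in *bdr3*, and none was called in *bdr2* or *bdr3* against WT.

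Besides *BDR2*, the genes called higher in *bdr1* each had a pattern of their own. *AT5G15360* (chromosome 5, 4987437 to 4989182), which encodes an uncharacterized protein, had 5.64, 8.76 and 7.04 CPM in *bdr1*, against 1.39, 1.01 and 1.32 CPM in *bdr2* and 0.871, 1.54 and 1.69 CPM in *bdr3*. It was the only gene of the 4 also called higher in *bdr1* than in WT (1.79, 1.27 and 1.24 CPM), with a log2 difference of 2.45 ± 0.25 SE from the paralogs (edgeR adjusted p = 2.56e-05) and 2.32 from WT (edgeR adjusted p = 0.00129). *AT5G11330* (chromosome 5, 3617138 to 3618913), which encodes a putative FAD/NAD(P)-binding oxidoreductase, had 27.7, 27.1 and 28.3 CPM in *bdr1*, against 11.9, 10.3 and 14.2 CPM in *bdr2* and 11.8, 10.7 and 10.8 CPM in *bdr3*. The *bdr1* libraries lay among those of *fpa* (31.1, 26.1 and 25.8 CPM) and WT (24.5, 31.6 and 24.7 CPM), while *bdrs* (12.04, 12.6 and 10.5 CPM) was as low as the paralog lines. The log2 difference from the paralogs was 1.25 ± 0.12 (edgeR adjusted p = 1.77e-05).

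*MRD1* (AT1G53480, chromosome 1, 19963047 to 19964712), a gene named for lower expression in a mutant that overaccumulates methionine, had 7.61, 11.8 and 10.2 CPM in *bdr1*, against 1.32, 1.38 and 1.16 CPM in *bdr2* and 4.88, 4.91 and 4.84 CPM in *bdr3*. The difference of *bdr1* from the paralog mean was 1.97 ± 0.16 (log2, edgeR adjusted p = 1.41e-06), but WT was far above all of them at 46.5, 45.5 and 51.0 CPM. The level was thus low in each single mutant, and in *bdr1* less so (−2.27 from WT, against −5.21 in *bdr2* and −3.29 in *bdr3*). *MRD1* was also low in *bdrs* (1.61, 2.03 and 1.06 CPM). It was lowest in *fpa* (0.760, 0.862 and 0.693 CPM, −5.92 from WT), so low levels were not particular to the *bdr* lines. The gene overlaps AT1G53490 on the opposite strand, and no source used here gives the strand option of the read counting, so its reads are uncertain. The genes next in order of p, which did not pass the test, were *TRB3* (a telomere repeat binding factor, 0.65, edgeR adjusted p = 0.0644), AT4G24920 (a SecE/Sec61-gamma family protein, 0.54, edgeR adjusted p = 0.0665), AT4G28900, AT4G21450, *UMAMIT46* and *PSRP3/2*.

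Of the 50 lower genes, 16 belong to the seed lists used here (seed maturation, late embryogenesis abundant, oleosin and seed oil breakdown), 9 to the wall lists (extensin-like and root hairs) and 25 to neither. Late embryogenesis abundant (LEA) proteins are hydrophilic proteins that accumulate as seeds dry and protect cells from water loss. In the wild type many of their transcripts fall as seedlings establish. The summed level of the LEA list in WT was 628, 593 and 703 CPM here, so these transcripts were still present. *ECP63* (AT2G36640), which encodes an LEA protein, had 6.07, 6.53 and 4.81 CPM in *bdr1*, against 19.0, 15.0 and 12.8 CPM in *bdr2* and 19.8, 21.0 and 16.4 CPM in *bdr3*. The *bdr1* libraries were also below those of WT (10.8, 12.6 and 9.39 CPM), although the difference from WT did not pass the test. The level in *bdr1* was 2.95-fold lower than in the paralogs (log2 difference −1.56 ± 0.19 SE, edgeR adjusted p = 4.27e-04). *EM1* (AT3G51810), an early methionine-labelled LEA protein of the embryo, had 3.87, 5.98 and 6.09 CPM in *bdr1*, against 13.9, 13.8 and 11.8 CPM in *bdr2* and 11.8, 17.0 and 12.3 CPM in *bdr3* (−1.35 ± 0.21, edgeR adjusted p = 0.00478). No *bdr1* library reached the lowest paralog library in either gene. The dehydrin gene *LEA* (AT2G21490) had 2.30, 3.21 and 2.92 CPM in *bdr1*, against 8.59, 7.86 and 6.82 CPM in *bdr2* and 6.74, 9.33 and 6.11 CPM in *bdr3* (−1.43 ± 0.22, edgeR adjusted p = 0.00427).

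The same separation was found for further LEA genes. AT4G36600 had 6.07, 5.00 and 4.46 CPM in *bdr1*, against 15.73, 14.1 and 10.3 CPM in *bdr2* and 15.3, 15.8 and 13.0 CPM in *bdr3* (−1.42 ± 0.16, edgeR adjusted p = 1.53e-04). It was the only seed gene of the 50 also called against WT (−1.12, edgeR adjusted p = 0.0202). AT3G53040 had 9.61, 9.47 and 10.2 CPM in *bdr1*, against 29.5, 19.6 and 21.3 CPM in *bdr2* and 31.7, 28.0 and 19.8 CPM in *bdr3* (−1.35 ± 0.17, edgeR adjusted p = 4.27e-04). AT3G15670 had 18.6, 18.8 and 20.4 CPM in *bdr1*, against 49.1, 44.0 and 43.02 CPM in *bdr2* and 43.9, 45.2 and 38.9 CPM in *bdr3* (−1.19 ± 0.16, edgeR adjusted p = 0.00108). For each of these genes the *bdr1* libraries lay close together and well below every paralog library. AT2G42560 (−1.48 ± 0.20, edgeR adjusted p = 0.00111) and AT5G44310 (−1.57 ± 0.22, edgeR adjusted p = 0.00165) followed the same pattern, as did AT2G18540, a cupin of the family that holds the seed storage globulins (−1.72 ± 0.21, edgeR adjusted p = 3.31e-04).

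Malate synthase and isocitrate lyase, the enzymes particular to the glyoxylate cycle that turns seed oil into sugar, were lower as well. *MLS* (AT5G03860) had 25.1, 29.4 and 33.0 CPM in *bdr1*, against 72.8, 71.1 and 68.0 CPM in *bdr2* and 63.1, 82.9 and 56.7 CPM in *bdr3* (−1.25 ± 0.19, edgeR adjusted p = 0.00424). *ICL* (AT3G21720) had 151, 316 and 281 CPM in *bdr1*, against 735, 574 and 662 CPM in *bdr2* and 576, 963 and 603 CPM in *bdr3* (−1.46 ± 0.24, edgeR adjusted p = 0.0101). In WT *ICL* stood at 417, 543 and 646 CPM, above all *bdr1* libraries and overlapping the lower paralog libraries. *MLS* kept its call in all alternatives tried, with a largest adjusted p of 0.0419, and *ICL* lost it in 1, without the 3 libraries richest in ribosomal RNA (*bdr1* 3, *bdrs* 1 and *fpa* 3; adjusted p = 0.0516).

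Across the 18 alternatives, 11 of the 50 lower genes kept their call in all, namely *BDR1* and 10 genes of the kinds just described: AT4G36600, AT2G18540, *ECP63*, AT3G53040, AT3G15670, AT2G42560, AT5G44310, *MLS*, *LEA* and *EM1*. They are called seed genes here from their annotation, and AT2G18540, *ECP63* and *LEA* are in none of the lists. Their levels in *bdr1* were 2.28-fold to 3.3-fold lower than in the paralog lines.

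**Figure D3:**
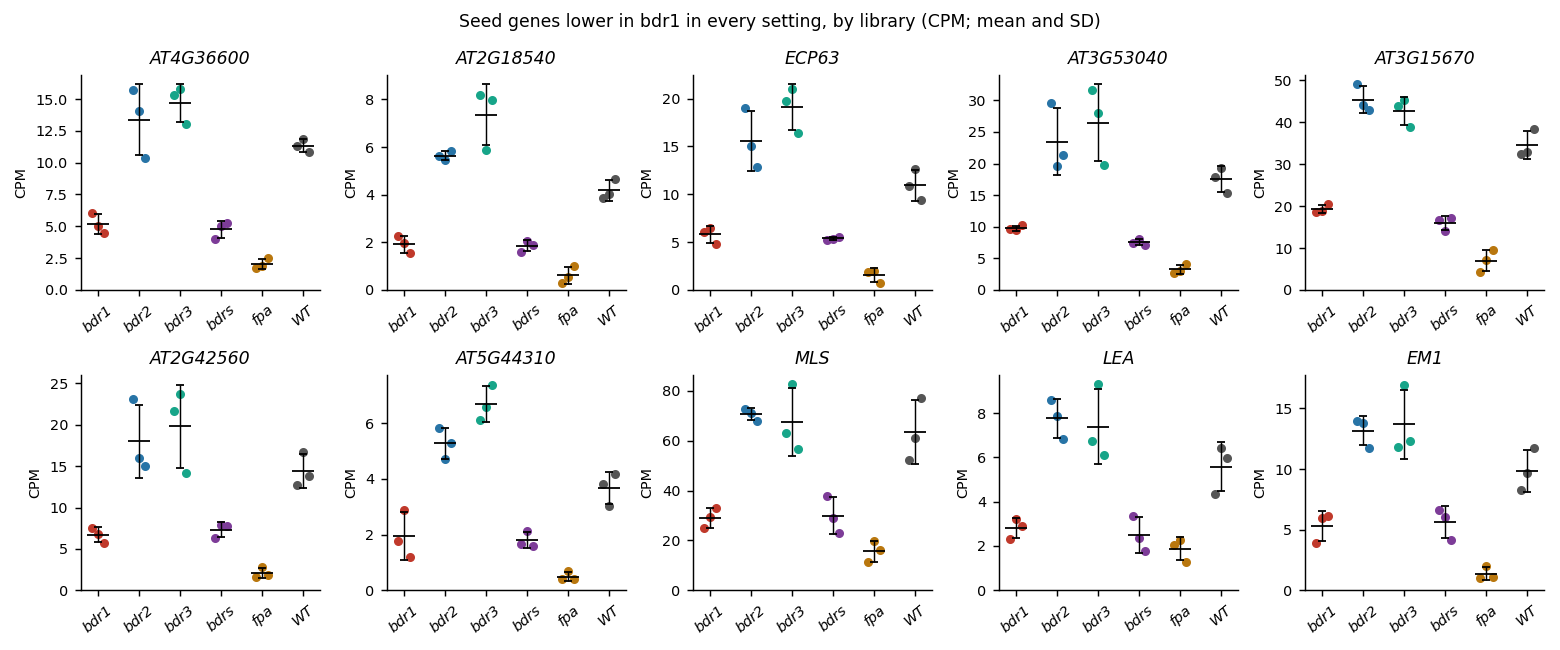
Levels (CPM, y axis) of the 10 seed genes that stayed called lower in *bdr1* in all alternatives, with a point per library, the mean as a bar and the SD as whiskers for *bdr1*, *bdr2*, *bdr3*, *bdrs*, *fpa* and WT. In each gene the *bdr1* points lie below all *bdr2* and *bdr3* points, at a level near that of *bdrs*, and *fpa* is lower still.

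Sequences upstream of 3 of these genes are shown because they share short elements known from seed genes. The letters ACGTG form the core of the abscisic acid response element, through which bZIP factors such as ABI5 act, CACGTG is the G-box, which contains that core on both strands, and CATGCA is the RY element bound by B3 factors such as ABI3. Each line below gives the 250 bases before the start of the RefSeq gene model (TAIR10.1), on the strand of the gene, with all matches to these elements on either strand in capitals. *EXT10*, a cell wall gene of the lower set, is given for contrast.
AT4G36600, chr4:17263314-17263563, plus strand: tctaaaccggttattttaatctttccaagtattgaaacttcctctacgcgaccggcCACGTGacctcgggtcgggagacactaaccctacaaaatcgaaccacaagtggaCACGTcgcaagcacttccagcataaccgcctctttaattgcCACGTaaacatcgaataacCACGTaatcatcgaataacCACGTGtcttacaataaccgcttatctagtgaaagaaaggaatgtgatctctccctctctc
AT3G53040, chr3:19666498-19666747, minus strand: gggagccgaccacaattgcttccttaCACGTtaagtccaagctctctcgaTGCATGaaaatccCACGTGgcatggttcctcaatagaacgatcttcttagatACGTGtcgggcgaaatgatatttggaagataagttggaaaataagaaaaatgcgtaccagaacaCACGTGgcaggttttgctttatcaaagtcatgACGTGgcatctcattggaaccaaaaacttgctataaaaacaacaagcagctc
AT2G18540, chr2:8045034-8045283, minus strand: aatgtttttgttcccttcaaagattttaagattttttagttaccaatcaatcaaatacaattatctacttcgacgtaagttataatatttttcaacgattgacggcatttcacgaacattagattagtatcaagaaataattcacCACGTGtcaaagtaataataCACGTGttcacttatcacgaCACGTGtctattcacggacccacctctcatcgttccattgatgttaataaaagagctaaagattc
*EXT10*, chr5:2041929-2042178, minus strand: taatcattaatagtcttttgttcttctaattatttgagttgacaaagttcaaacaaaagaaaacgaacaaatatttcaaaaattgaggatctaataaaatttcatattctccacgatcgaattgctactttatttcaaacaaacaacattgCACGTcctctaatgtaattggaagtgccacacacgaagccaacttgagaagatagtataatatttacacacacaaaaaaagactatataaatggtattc

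Counted on both strands, so that a G-box gives 2 matches, ACGTG occurred 7 times upstream of AT4G36600, 7 times upstream of AT3G53040, 6 times upstream of AT2G18540 and 1 time upstream of *EXT10*. At least 1 ACGTG was found in 9 of the 10 seed genes (*MLS* had none), in 37 of the 50 lower genes (74%) and in 24.2% of the 20012 tested nuclear genes. At least 2 were found in 8 of the 10, in 21 of the 50 (42%) and in 10.1% of tested genes. The G-box occurred in 6 of the 10, in 17 of the 50 (34%) and in 7.58% of tested genes, and the RY element in 3, 13 (26%) and 7.81%. Among the 34 tested genes annotated as LEA, whether called or not, 20 held an ACGTG (58.8%), 15 a G-box (44.1%) and 3 an RY element (8.82%). The RY share of LEA genes was thus near that of all tested genes. An RY element occurred in 2 of the 16 lower genes of the seed lists (12.5%) and in 9 of the 25 in neither list (36%). Of the sequences shown, only that of AT3G53040 holds an RY element. The motifs were chosen after the lower genes were known, and a match is a description of the letters, not a binding site.

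Regulators known to act through such elements were in the lower set too. *ABI5* (AT2G36270), the bZIP factor of abscisic acid responses in seeds, had 1.961, 1.41 and 2.15 CPM in *bdr1*, against 3.47, 3.71 and 4.46 CPM in *bdr2* and 4.07, 4.07 and 4.05 CPM in *bdr3* (−1.12 ± 0.23, edgeR adjusted p = 0.038). *ABI3* (AT3G24650), the B3 factor of seed maturation, had 3.68, 3.37 and 3.95 CPM in *bdr1*, against 9.70, 5.98 and 8.69 CPM in *bdr2* and 7.78, 7.99 and 6.96 CPM in *bdr3* (−1.10 ± 0.23, edgeR adjusted p = 0.0471). In both genes no *bdr1* library reached any paralog library. Both calls were lost in 7 of the 9 fits that left out a library, with adjusted p up to 0.317 for *ABI5* and 0.314 for *ABI3*. *RD29B* (AT5G52300), a desiccation gene driven by the abscisic acid response element, was lower at 33.8, 36.5 and 33.0 CPM in *bdr1*, against 87.4, 48.6 and 73.4 CPM in *bdr2* and 91.4, 72.6 and 66.7 CPM in *bdr3* (−1.09 ± 0.22, edgeR adjusted p = 0.0393). Its call was lost in 6 of the 9 fits that left out a library and in the fit without *bdr1* 3, *bdrs* 1 and *fpa* 3, with adjusted p up to 0.262. *RD29B* was the only gene called among 18 tested genes of the abscisic acid, drought and cold list. Of these 18, 15 lay below 0 (median −0.30), as did 48.4% of all tested genes. At an unadjusted p under 0.05, 4 of the 18 were lower, as were 5.97% of all tested genes.

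As a group, 10 of 34 tested genes annotated as LEA were called lower (0.248% of all tested genes were) and none higher, and their median log2 difference was −0.63, against 0.01 over all tested genes. Of these 34, 25 lay below 0, as did 48.4% of all tested genes. Only 5 LEA genes were lower without *bdr1* 2 and 6 without *bdr1* 3, and 8 to 10 without any other single library. In the seed maturation list, 3 of 15 tested genes passed (*ABI3*, *ABI5* and *EM1*) and 14 lay below 0 with a median of −0.99. In 7 of the 9 fits that left out a library, 1 gene of this list passed, and 3 passed without *bdr1* 1 or *bdr2* 2. The storage protein genes of that list did not pass: the cruciferin *CRA1* averaged 148 CPM in *bdr1*, against 358 and 255 CPM in *bdr2* and *bdr3* (−1.03, edgeR adjusted p = 0.126), and *CRC* averaged 72.8, against 212 and 162 CPM (−1.35, edgeR adjusted p = 0.121). Of 10 tested oleosin genes, which coat oil bodies, AT3G01570 was lower (−1.22, edgeR adjusted p = 0.0435), a call kept in 1 of the 9 fits that left out a library and 9 of the 18 alternatives (adjusted p up to 0.227). Of 16 genes of seed oil breakdown, only *ICL* and *MLS* passed, and 15 lay below 0 (median −0.24). Both passed in all 9 fits that left out a library. The summed level of the seed maturation list was 332, 416 and 431 CPM in *bdr1*, against 1051, 786 and 833 CPM in *bdr2* and 616, 957 and 486 CPM in *bdr3*, so that *bdr3* 3 came close to the *bdr1* libraries. In WT it was 565, 700 and 980 CPM. The LEA, oleosin and oil breakdown lists, and the extensin-like list used below, were chosen after the values were seen.

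Other lower genes encode extensins and related proteins of the cell wall. Extensins and related proline-rich proteins are wall glycoproteins whose repeats are cross-linked in the wall. *EXT11* (AT5G49080) had 1.82, 1.58 and 1.12 CPM in *bdr1*, against 3.33, 2.33 and 3.96 CPM in *bdr2* and 4.76, 5.33 and 3.99 CPM in *bdr3* (−1.33 ± 0.21, edgeR adjusted p = 0.00489). *LRX1* (AT1G12040), a leucine-rich repeat extensin of root hairs, had 6.94, 5.22 and 3.18 CPM in *bdr1*, against 9.56, 7.86 and 13.3 CPM in *bdr2* and 15.3, 16.9 and 14.2 CPM in *bdr3* (−1.27 ± 0.23, edgeR adjusted p = 0.0155). In both genes the *bdr2* libraries lay between *bdr1* and *bdr3*. Of 14 tested genes annotated as proline-rich extensin-like, a list chosen after the values were seen, 7 were lower and none was higher. All 14 lay below 0 (median −1.05), as did 48.4% of all tested genes. In the root hair list, 2 of 9 tested genes were lower, *LRX1* and *PRP3*. Over all tested genes 0.248% were called lower and 0.0199% higher. The summed level of the extensin-like genes was 678, 631 and 519 CPM in *bdr1*, against 792, 718 and 1311 CPM in *bdr2* and 1206, 1320 and 1250 CPM in *bdr3*, with 770, 825 and 1045 CPM in WT. In this sum the *bdr2* libraries 1 and 2 were thus nearer to *bdr1* than to *bdr3*.

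The calls of these wall genes came with the comparison with *bdr3*. Of the 9 called genes of the extensin and root hair lists, 8 were also called against *bdr3* and 0 against *bdr2* by edgeR (1 by DESeq2). Of all tested genes, 0.223% were called lower against *bdr3* and 0.119% against *bdr2*. All 9 were still lower than in *bdr2* at an unadjusted p under 0.05, and none of them was called between *bdr2* and *bdr3*. No called wall gene of these lists kept its call without *bdr1* 2 or without *bdr1* 3, and the number of extensin-like genes called ran between 0 and 11 when a library was left out. All 9 tested genes of the root hair list lay below 0 (median −0.47). At an unadjusted p under 0.05, 4 of them were lower, as were 5.97% of all tested genes. The early root hair regulators of the list were not called: *RHD6* was at −0.13 (edgeR adjusted p = 0.877) and *RSL4* at −0.18 (edgeR adjusted p = 0.875). *EXPA7*, an expansin of hairs, was at −0.57 (edgeR adjusted p = 0.166). Further wall genes, *HRGP1*, *PRP1* and the laccase *LAC1*, were lower too (log2 differences of −1.14, −1.06 and −0.86). All of these calls were lost without *bdr1* 2, without *bdr1* 3 and in the fit of the 9 libraries alone, and *PRP1* and *LAC1* kept theirs in 4 of the 9 fits that left out a library (adjusted p up to 0.208 and 0.314). Extensins share repeats, so reads that fit several of them could not be counted uniquely and single members are uncertain. The ACGTG core was found upstream of 10 of the 14 extensin-like genes (71.4%), at most 1 time in each, and no G-box was found.

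The triple mutant gives a view of these genes from other libraries, since *bdrs* against WT shares no library with *bdr1* against its paralogs, although *bdrs* carries the *bdr1* mutation too. Of the 50 genes lower in *bdr1*, 30 were also called lower in *bdrs* (60%, against 2.78% of all tested genes) and 2 were called higher (against 1.89%). Those 30 include *BDR1* itself, whose mutation both lines carry, and are 5.37% of the 559 genes lower in *bdrs*. The seed and wall genes parted company there. Of the 16 lower genes in the seed lists, 14 were called lower in *bdrs*, with a median log2 difference of −1.17 from WT, whereas of the 9 lower genes in the wall lists only AT5G59170 was lower in *bdrs*, *EXT10* and AT5G06630 were higher, and the median was 0.55. In *fpa*, all 16 seed genes and 1 of the 9 wall genes were called lower than in WT (3.12% of all tested genes were), with medians of −2.47 and −0.25. For *ECP63* the *bdrs* libraries had 5.25, 5.33 and 5.59 CPM and the *fpa* libraries 1.93, 2.03 and 0.693 CPM, so that *bdr1* lay at the level of *bdrs*, above *fpa* and below WT. Against the same WT libraries the median over the 16 seed genes was −0.94 in *bdr1* and −1.17 in *bdrs*, and the difference between these lines was not tested.

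**Figure D4:**
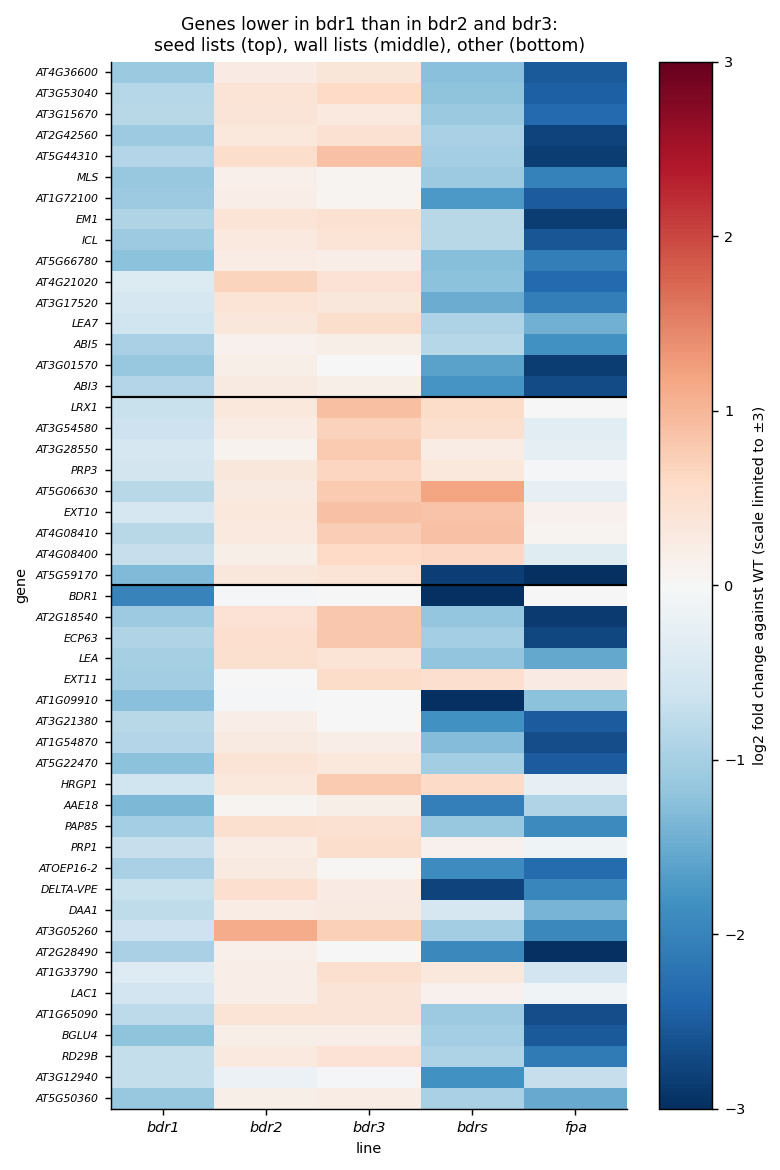
Log2 fold change against WT (colour, limited to ±3) of the 50 genes lower in *bdr1* than in *bdr2* and *bdr3* (y axis), in *bdr1*, *bdr2*, *bdr3*, *bdrs* and *fpa* (x axis), with black lines between the 16 genes of the seed lists (top), the 9 of the wall lists (middle) and the other 25 (bottom). The seed genes are blue in *bdr1*, *bdrs* and *fpa*, while most wall genes are blue in *bdr1* and red in *bdr3* and *bdrs*. The comparisons in this panel share the WT libraries.

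A few lower genes have the gene arrangement that marks the triple mutant, a close upstream neighbour on the same strand. AT1G09910, a rhamnogalacturonate lyase family gene that starts 142 bp after AT1G09920, had 5.26, 5.66 and 6.01 CPM in *bdr1*, against 12.5, 9.81 and 17.1 CPM in *bdr2* and 12.3, 11.99 and 16.0 CPM in *bdr3* (−1.24 ± 0.21, edgeR adjusted p = 0.00884). In *bdrs* it stood at 0.219, 0.0472 and 0.294 CPM and in WT at 11.4, 14.4 and 14.7 CPM, so *bdr1* was intermediate while the paralog lines lay with WT. Its difference from WT in *bdr1* was −1.26 (edgeR adjusted p = 0.0561). *AAE18* (AT1G55320), an acyl-activating enzyme gene 88 bp from its neighbour, had 3.301, 2.28 and 2.23 CPM in *bdr1*, against 8.66, 4.97 and 7.76 CPM in *bdr2* and 9.003, 6.52 and 7.26 CPM in *bdr3* (−1.48 ± 0.26, edgeR adjusted p = 0.0133), and 0.657, 2.03 and 2.06 CPM in *bdrs*. AT3G12940, an oxygenase family gene 23 bp from its neighbour, was lower in *bdr1* (log2 difference −0.62, edgeR adjusted p = 0.0411) and stood at −1.82 in *bdrs* against WT. The calls of AT1G09910 and *AAE18* were lost without *bdr1* 2 or *bdr1* 3, with adjusted p up to 0.0838 and 0.127. AT3G12940 kept its call in 3 of the 9 fits that left out a library and in 8 of the 18 alternatives, with adjusted p up to 0.357.

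Over all genes this arrangement was no more common in the lower set than elsewhere. A tandem upstream neighbour was found for 25 of the 50 lower genes (50%) and for 50.6% of the tested genes, and a tandem neighbour at 0 to 500 bp for 10 (20%) and for 21.9%, whereas the shares were 79.6% and 57.4% among the genes lower in *bdrs*. Of the 1162 genes with a close and well-expressed tandem neighbour, 4 were lower (0.344%) and 1 was higher in *bdr1*, with a median difference of −0.0015. Over all tested genes 0.248% were lower and 0.0199% higher. For the 559 genes lower in *bdrs* the median difference of *bdr1* from its paralogs was −0.16, with 30 called lower (5.37%) and 3 higher. The 381 genes higher in *bdrs* had a median of −0.04, with 2 called lower (0.525%) and none higher. Around the insertions, 0 of 27 tested genes within 100 kb of *BDR1*, 1 of 45 near *BDR2* (*BDR2* itself lies outside this count, and *AT5G11330* is the gene) and 0 of 35 near *BDR3* passed. At an unadjusted p under 0.05, 2 genes were lower near *BDR1*, and 2 were lower and 2 higher near *BDR3*, of which DESeq2 called none. Near *BDR2*, 6 of 45 were higher and none was lower at that p, against 7.51% and 5.97% of all tested genes. The gene upstream of *BDR1*, AT5G25510, averaged 39.9 CPM in *bdr1*, 37.9 CPM in *bdr2* and 32.0 CPM in *bdr3* (0.19, edgeR adjusted p = 0.596).

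Most other gene groups gave no call. None of the genes for transcript elongation (15 tested), 3′ end formation (14), flowering time (14), the Calvin cycle (18), salicylic acid defence (14), jasmonate (17), heat shock (12), the circadian clock (15), the root endodermis (10), iron deficiency (11) or flavonoids and anthocyanin (14) was called by edgeR or DESeq2, and 6 of the 154 were lower and 6 higher at an unadjusted p under 0.05. *FLC*, which averaged 42.0 CPM in *bdrs*, 75.3 CPM in *fpa* and 5.57 CPM in WT, had 7.84, 10.6 and 9.27 CPM in *bdr1*, against 5.96, 9.25 and 5.89 CPM in *bdr2* and 4.88, 5.26 and 2.84 CPM in *bdr3*. The *bdr1* libraries lay above those of *bdr3* and WT (6.69, 5.06 and 4.95 CPM) and overlapped those of *bdr2* only through *bdr2* 2. The difference from the paralog mean did not pass the test (0.74, edgeR adjusted p = 0.178), nor did that from WT (0.73, edgeR adjusted p = 0.777). All 14 genes for 3′ end formation lay below 0 (median −0.17), with none at an unadjusted p under 0.05. Of the 15 elongation genes 10 lay below 0 (median −0.25), against 48.4% of all tested genes, and 4 were lower at an unadjusted p under 0.05 (5.97% of all were), led by *NRPB1*, the large subunit of RNA polymerase II (−0.48, edgeR adjusted p = 0.29).

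Light-harvesting and photosystem genes lay above 0 in 23 of 25 cases (median 0.25), with none called by edgeR or DESeq2 and 1 higher at an unadjusted p under 0.05. Their summed level was 99260, 167284 and 189417 CPM in *bdr1*, 114726, 127714 and 159888 CPM in *bdr2*, and 84226, 137006 and 164317 CPM in *bdr3*. The libraries numbered 1 were the lowest in each line, and *bdr1* 1 stood far below *bdr1* 2 and 3. Transcripts of the plastid genome had a median of −0.60 over 84 tested genes, of which edgeR called none, DESeq2 called 1 lower and 20 were lower at an unadjusted p under 0.05. Their summed level was 8465 CPM in *bdr1* 3, which also had the most ribosomal RNA, against 1256 and 1157 CPM in *bdr1* 1 and 2, and the part of RNA selection in this was not tested.

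**Figure D5:**
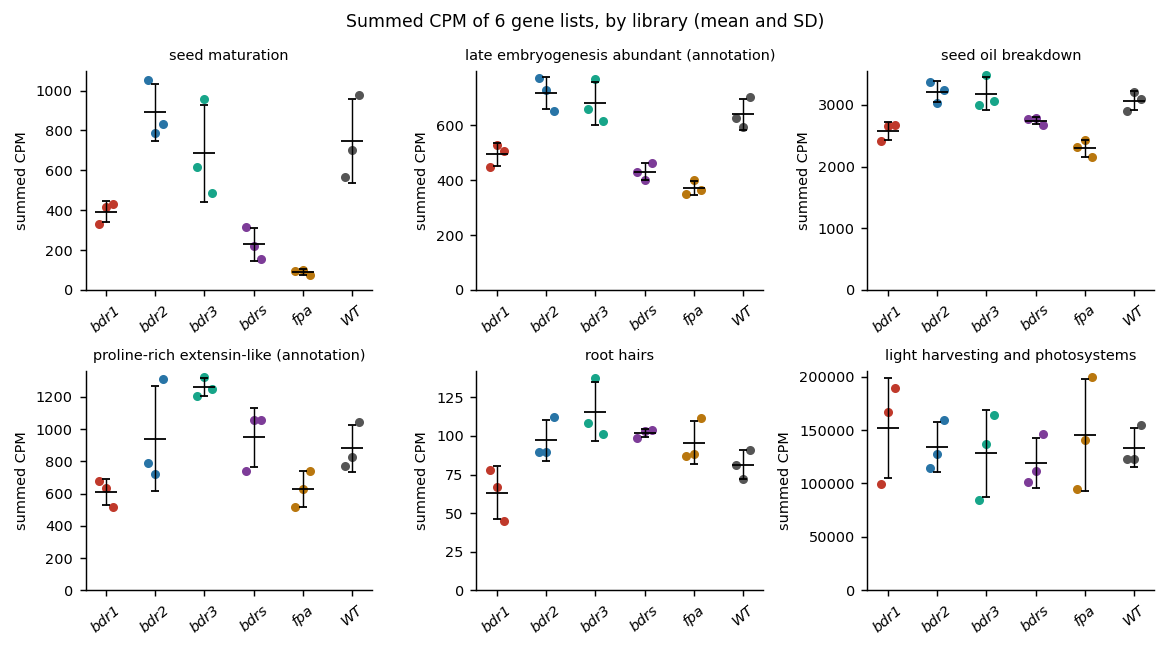
Summed level (CPM, y axis) of 6 gene lists, with a point per library, the mean as a bar and the SD as whiskers for *bdr1*, *bdr2*, *bdr3*, *bdrs*, *fpa* and WT. The seed maturation and LEA sums are low in *bdr1*, *bdrs* and *fpa*, the extensin-like sum is low in *bdr1* and *fpa* and high in *bdr3*, and the light-harvesting sum overlaps between all groups.

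For most genes the data bound the difference rather than show one. The 95% interval of the difference between *bdr1* and the paralog mean lay within 2-fold either way for 17578 of the 20143 tested genes (87.3%) and within 1.5-fold for 10320 (51.2%). At an unadjusted p under 0.05, 1202 genes were lower (5.97%) and 1513 were higher (7.51%). A gene that missed the threshold is therefore not shown to respond alike in the 3 lines.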

How the data were processed

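Whole 8-day-old seedlings were profiled by mRNA-seq in 18 libraries, 3 per group, and groups were taken from the sample labels. Libraries were strand-specific. The authors mapped paired-end reads with STAR 2.5.2b, handled alignments with SAMtools 1.3.1 and counted uniquely aligned reads per TAIR10 gene with featureCounts. The deposited raw table holds these counts, not normalized, for 33602 genes, and no source used here gives the strand setting. The authors' second deposited table holds a normalized signal, in which 100% of the values for 23577 genes equalled the count divided by 1 size factor per library (relative tolerance 1e-06). Only its list of genes was used, in 1 alternative.

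Counts were tested with edgeR 4.0.16 in R 4.3.3 (quasi-likelihood F test, TMM, filterByExpr, all 18 libraries, 12 residual degrees of freedom, Benjamini-Hochberg adjustment over 20143 genes), with the contrast *bdr1* minus the mean of *bdr2* and *bdr3* on the log2 scale. Levels are given as CPM after TMM scaling. Library totals of 13209584 to 21084793 counts in the 9 libraries limit the precision of genes with few reads, and pairs of libraries of a line differed beyond sampling noise (lowest chi-square over its degrees of freedom 15.0), and none was taken as a copy. The script was tested on simulated counts. Alternatives were RLE scaling, no filter, DESeq2 1.42.0 (limma 3.58.1 and edgeR shared the R session), a fit of the 9 libraries alone, the 6 paralog libraries as 1 group, the replicate number as a block, leaving out the 3 libraries richest in ribosomal RNA, leaving out organelle and ribosomal RNA genes, the genes of the second table, and leaving out each library in turn.

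The comparison, gene lists and alternatives were chosen with earlier results of these data known. Named genes were the mutated genes, the 15 lower genes with the smallest p, all higher genes and the next in order of p, genes called against both paralogs, 1 member per list (smallest p), and the neighbours of *BDR1*, of which AT5G25530 had 2 reads in all and was not tested. Other lower genes and list members were named after their values were seen. Lists are described by counts and medians without a test. Positions and upstream sequences were taken from RefSeq's TAIR10.1 annotation, where 32835 of 33323 nuclear genes were found. Its models are newer than those the authors counted. The upstream sequence of a further gene is not reported here.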

Additional observations from a re-analysis of the deposited data

How the results depend on the processing

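The 50 lower genes stayed below 0 under every alternative in which they were tested, and no call was reversed, but the number of calls moved. For the 49 lower genes with all *bdr1* libraries below all paralog libraries, leaving out libraries could not reverse the sign. DESeq2 gave 123 lower and 23 higher genes (111 and 12 with all *bdr1* libraries on the outer side), 55 lower against *bdr2*, and 112 lower and 60 higher against *bdr3*. The 9 libraries alone gave 33 lower genes, and the paralogs as 1 group gave 2 higher genes. Without the 3 libraries richest in ribosomal RNA there were 20 lower genes, all 20 of them apart from the paralog libraries. Without any filter there were 69 lower genes. Same-numbered libraries of the 9 deviated together only in part (correlations of 0.0709 to 0.655), although 8 of 9 libraries correlated best with their own number. With the replicate block there were 76 lower genes (74 apart), 68 lower and 11 higher against *bdr3*, and 0 higher in *bdr2* against *bdr3*.

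Leaving out each library in turn gave 12 to 181 lower and 3 to 288 higher genes against the paralog mean (12 to 181 and 3 to 287 apart). For a comparison between single lines, only the libraries of those lines were left out. The ranges were then 6 to 18 lower and 4 to 7 higher against *bdr2*, and 10 to 180 lower and 2 to 235 higher against *bdr3*. In *bdr2* against *bdr3* they were 2 to 2 lower and 0 to 0 higher. The interval lay within 2-fold for 15252 to 17582 genes. Medians ran from −0.045 to 0.0026 for close tandem genes, −0.19 to −0.15 for genes lower in *bdrs* and −0.0896 to −0.0255 for genes higher in *bdrs*. The lower genes made up 38.6% of the calls without *bdr1* 1, against 92.6% with all libraries. *MRD1* lost its call only with the paralogs as 1 group (adjusted p = 0.168), and *BDR2* there and without *bdr1* 2. The cause of these shifts was not tested.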
